A study of Mus musculus with 8 samples.

Results

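The cytosolic ribosomal protein genes were examined in RNA sequencing of 8 libraries of 32D, a mouse bone marrow cell line of myeloid origin that depends on interleukin-3. The genes were taken by name, as protein-coding genes called Rpl or Rps with a number, together with the stalk genes Rplp0, Rplp1 and Rplp2 and the gene Rpsa. This gave 83 of the 56748 genes listed, 32 of the small subunit and 51 of the large subunit. All libraries came from cells transduced with murine Jak2, either the wild type (Jak2WT) or the mutant Jak2V617F that drives myeloproliferative neoplasms. In each background, 2 clones had intact glucose transporters (GLUT1/3 WT). The other 2 were double knockouts (dKO), in which Slc2a1 (GLUT1) and Slc2a3 (GLUT3) had been edited with CRISPR-Cas9. Each library is 1 clone grown from a single cell, numbered 1 or 3, and the p-values below measure the spread between such clones. The paper lists the same Slc2a1 deletion for every dKO clone of a background, and whether those clones share an edited ancestor was not tested. All 4 groups had been kept for 24 h in RPMI-1640 in which glucose was set to 5 mM, glutamine to 1 mM and interleukin-3 to 2 ng/ml.

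The cytosolic ribosome is built from a small (40S) and a large (60S) subunit, each a scaffold of ribosomal RNA decorated with ribosomal proteins, most of them present once per ribosome. The messages of these proteins are among the most abundant of a growing cell, and many begin with a run of pyrimidines (the terminal oligopyrimidine motif) through which mTOR and the RNA-binding protein LARP1 set their translation and stability. In the blood system, mutation of 1 copy of several of these genes causes Diamond-Blackfan anaemia, a failure of red cell production. Mammalian genomes also carry many processed pseudogenes of ribosomal protein genes, near-identical copies without introns that can take up reads of the parent gene.

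The first bases of 7 of the messages are shown because these genes carry the patterns described below. The windows run from 10 bases before to 20 bases from the start that RefSeq gives (build GRCm38.p6, a build other than that of the expression table), 5′ to 3′ on the strand of the gene. Capitals mark a run of at least 8 pyrimidines that begins with C within 5 bases of the start. Rpl13a (chr7:45128726-45128755, reverse strand), Rpl22l1 (chr3:28805498-28805527, forward), Rpl27a (chr7:109519185-109519214, forward), Rpl35a (chr16:33056472-33056501, forward, 1 of its 3 listed starts) and Rplp2 (chr7:141447641-141447670, forward) hold such a run. Rpl13 (chr8:123102340-123102369, forward) and Rps7 (chr12:28635934-28635963, reverse) do not in these windows.
Rpl13a: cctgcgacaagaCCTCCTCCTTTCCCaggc
Rpl22l1: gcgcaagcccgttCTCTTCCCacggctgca
Rpl27a: cgtgagCTCCTCCCTTTTCCCTTTCTgcca
Rpl35a: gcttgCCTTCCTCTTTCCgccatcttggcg
Rplp2: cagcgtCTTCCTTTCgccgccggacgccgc
Rpl13: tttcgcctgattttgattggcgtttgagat
Rps7: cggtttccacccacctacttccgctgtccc
RefSeq listed 71 promoters for 60 of the ribosomal protein genes that could be tested, and 21 of the promoters (29.6%) held such a run. It was present in 4.37% of all 32851 promoters of that table and in 2.67% of the 75 promoters of mitochondrial ribosomal protein genes. In the 300 bases around each start, the letters CCGGAAG, the core of an ETS factor site such as that of GABPA, occurred on either strand in 36.6% of the cytosolic ribosomal protein promoters. Among all promoters they occurred in 8.86%, and in those of mitochondrial ribosomal proteins in 34.7%. The E-box CACGTG was present in 11.3% of the promoters against 7.15% of all, and the TATA letters TATAAA in 9.86% against 13.6%.

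The values were FPKM, fragments per kilobase of gene scaled to library depth, and the reads recovered from them ranged from 16846011 to 48884329 per library. Of the edited genes, Slc2a1 was at 44.7 and 48.4 FPKM in the Jak2WT GLUT1/3 WT clones and at 9.47 and 9.17 in the dKO clones. In the Jak2V617F clones it was at 64.01 and 53.0 with intact transporters and at 17.3 and 12.7 in dKO. Slc2a3 was lower in each dKO clone as well, but Jak2WT GLUT1/3 dKO clone 3 kept 49.5 FPKM against 16.03 in clone 1, and the difference did not pass the test there (log2 -1.71 ± 0.49, limma adjusted p = 0.0612). The paper identified the Slc2a3 edits by sequencing and reports a complete loss of glucose uptake in dKO clones of both backgrounds. Among 7 markers of granulocytes and of 32D cells, Mpo, Elane and Ctsg stayed under 1 FPKM in every library, whereas Prtn3 at 3.11 to 10.2 FPKM, Cebpe, Ptprc and Csf2rb were present. Lymphoid and fibroblast markers were all under 1 FPKM. Markers of several cell types moved with the groups. The 6 erythroid markers, of which 4 reached 1 FPKM, had a summed level of 59.2 to 79.5 FPKM in Jak2WT GLUT1/3 WT, 217 to 259 in Jak2WT GLUT1/3 dKO, 496 to 845 in Jak2V617F GLUT1/3 WT and 2538 to 4616 in Jak2V617F GLUT1/3 dKO. Most of this was globin, while Alas2 stayed under 1 FPKM. In the same order of groups, the summed level of 3 megakaryocyte markers was 63.2 to 63.7, 84.5 to 90.2, 177 to 189 and 183 to 222 FPKM. That of 4 mast cell and basophil markers, nearly all from Cpa3, was 78.3 to 94.9, 51.0 to 101, 0.531 to 0.554 and 0 to 1.67. The granulocyte and 32D markers summed to 237 to 268, 164 to 203, 186 to 189 and 73.3 to 76.3, and 3 macrophage markers, with Csf1r near 0, to 57.0 to 57.6, 64.5 to 72.9, 52.2 to 68.1 and 21.9 to 26.4. The part of these shifts in the ribosomal protein results was not tested, and in bulk libraries fewer cells of a type and less RNA per cell cannot be told apart.

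Expression of at least 1 FPKM in at least 2 libraries was reached by 80 of the 83 genes, 32 of the small and 48 of the large subunit. The other 3 are paralogs with restricted expression. Rpl10l and Rpl39l were listed at 0 in all libraries, and Rpl3l, a muscle paralog of Rpl3, had a mean of 0.254 FPKM. The highest means over the 8 libraries were those of Rplp0 at 2160 FPKM, Rplp1 at 1641, Rpl4 at 1559, Rps15 at 1522 and Rps6, the classical substrate of S6 kinase, at 1342. Of all members, 7 had a mean above 1000 FPKM and 61 lay between 100 and 1000. At the other end stood Rpl24 at 1.70 FPKM, Rpl29 at 2.36, Rpl21 at 2.41, Rps10 at 3.54 and Rpl26 at 14.4. Among the 80 genes, the coefficient of variation over the libraries was largest for Rpl21 at 34.9%, Rpl13 at 26.4%, Rpl17 at 25.8%, Rps27a at 24.9% and Rpl24 at 24.5%. Of the 5 low genes, Rps10 and Rpl21 had most of their reads on named copies, as described next.

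The table held 320 rows named as pseudogene copies of 63 of the members, and 19 of these rows had a mean of at least 100 FPKM. They were taken by name, and some are listed as protein coding, among them Rps18-ps5 at 364 FPKM and Rpl9-ps6 at 107. Rps10, with a mean of 3.54 FPKM, stood beside a copy named Rps10-ps2 at 352 FPKM, and 95.6% of the reads on the gene and its copies lay on the copies. The same share was 95.0% for Rps2, whose copy Rps2-ps10 reached 2128 FPKM against 60.5 for the gene itself. It was 83.0% for Rps18, 64.3% for Rpl21 and 63.8% for Rps26. No more than these 5 genes had most of their reads on named copies. Rpl29 was low with 1.89% of reads on copies, and Rpl24 was low without a named copy. Rpl24 had 85.6% of its 31-base words at another place of the GRCm39 genome, and whether places under other names hold its reads was not tested. Over all libraries, the pseudogene rows amounted to 25.3% to 29.4% of the FPKM of the members. How reads that map to several places were counted is not given in the sources used here, and a gene and its copy cannot be told apart where their sequences agree.

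**Figure D1:**
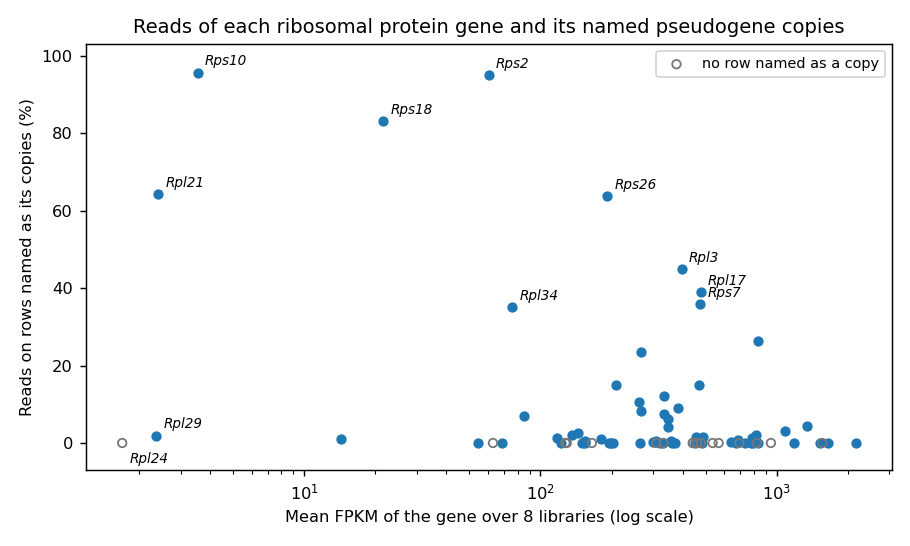
Share of the reads on a ribosomal protein gene and its named pseudogene copies that lay on the copies (vertical axis, %), against the mean FPKM of the gene over the 8 libraries (horizontal axis, log scale), 1 point per gene. Rps10, Rps2, Rps18, Rpl21 and Rps26 lie above 50%, and Rplp0 and most other abundant genes lie near 0.

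The members together took up 10.1% and 10.1% of all FPKM in clones 1 and 3 of Jak2WT GLUT1/3 WT. In Jak2WT GLUT1/3 dKO the share was 12.2% and 11.7%, in Jak2V617F GLUT1/3 WT 12.6% and 12.8%, and in Jak2V617F GLUT1/3 dKO 12.8% and 13.0%. The 6 libraries of the other groups thus all lay above both Jak2WT GLUT1/3 WT clones, and the Jak2V617F groups were adjacent, with 12.79% the highest value of GLUT1/3 WT and 12.82% the lowest of dKO. As group means the shares were 10.1% ± 0.0434 (SD, n = 2), 11.9% ± 0.325, 12.7% ± 0.119 and 12.9% ± 0.0972 in the same order. Both subunits contributed. The small subunit had mean shares of 3.998%, 4.74%, 5.04% and 5.18% in that order, and the large subunit 6.09%, 7.18%, 7.67% and 7.71%. No test was made on the share, and with 2 clones per group an exact permutation test could not give a p below 0.333.

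**Figure D2:**
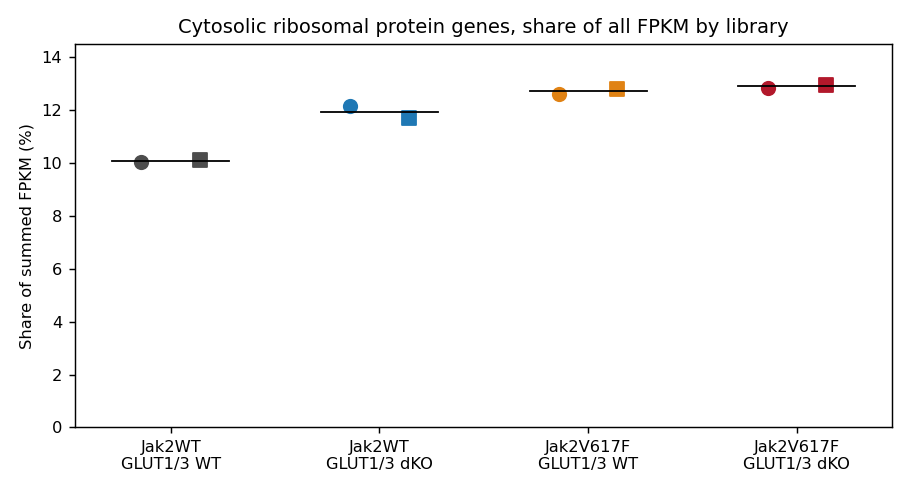
Share of the summed FPKM taken by the 83 ribosomal protein genes (vertical axis, %) in each library (circles, clone 1, and squares, clone 3), by group, with the group mean as a line. Both Jak2WT GLUT1/3 WT clones lie at 10.1%, and all other libraries lie between 11.7% and 13.0%.

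Gene by gene, the Jak2WT GLUT1/3 WT clones stood out as the low group. Of the 80 genes, 72 had their lowest group mean there, 6 in Jak2V617F GLUT1/3 WT, 2 in Jak2V617F GLUT1/3 dKO and 0 in Jak2WT GLUT1/3 dKO. The highest group mean fell in Jak2V617F GLUT1/3 WT for 43 genes and in Jak2V617F GLUT1/3 dKO for 26. Both Jak2WT GLUT1/3 WT clones lay below all 6 other libraries for 61 genes, 76.2% of the 80, and the same held for 13.2% of all 11818 genes tested. On the log2(FPKM + 1) scale, the median difference from the mean of the Jak2WT GLUT1/3 WT clones was 0.38 and 0.27 in the Jak2WT GLUT1/3 dKO clones 1 and 3. It was 0.50 and 0.41 in the Jak2V617F GLUT1/3 WT clones and 0.37 and 0.38 in the Jak2V617F GLUT1/3 dKO clones. Clones of 1 group also differed as a block, most in Jak2WT GLUT1/3 dKO, where clone 1 was above clone 3 for 64 of the 80 genes by a median of 0.12. Over the 8 libraries, the level of a gene followed the mean of the other 79 with a median Pearson correlation of 0.89, and 54 genes reached 0.80. This is a description across libraries that share depth and scaling. The 5 lowest were Rpl29 at -0.28, Rps10 at -0.08, Rpl21 at -0.05, Rplp2 at 0.15 and Rpl24 at 0.16, so 4 of the 5 are genes with under 5 FPKM and Rplp2 is not.

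**Figure D3:**
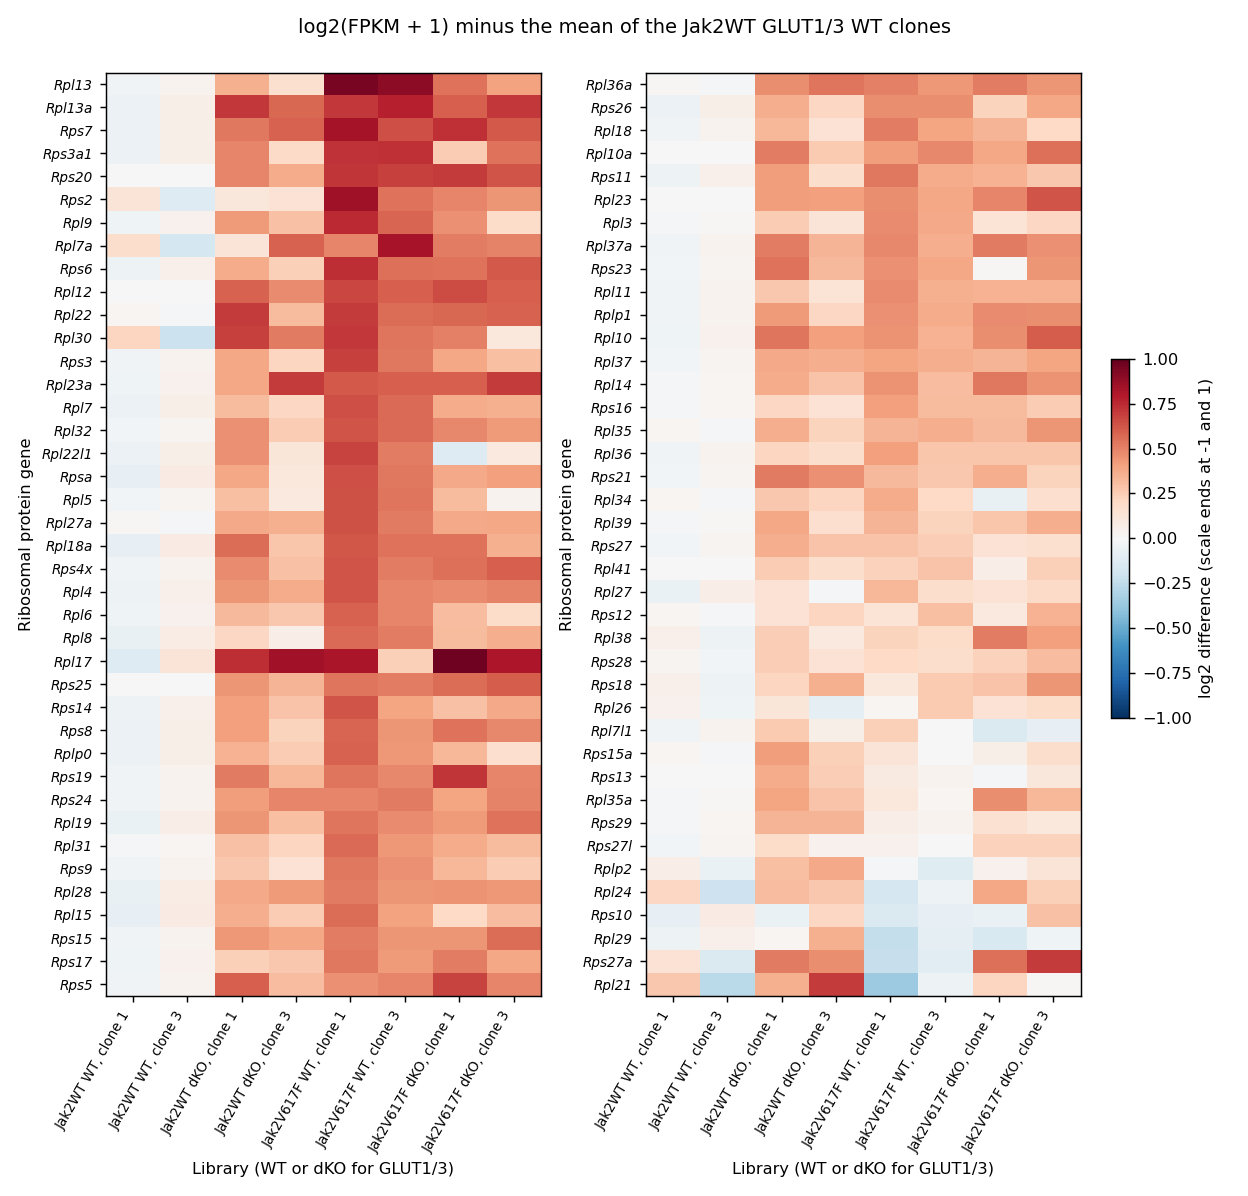
log2(FPKM + 1) of the 80 ribosomal protein genes in each library minus the mean of the Jak2WT GLUT1/3 WT clones (colour, red for higher), with genes ordered from top left to bottom right by their difference between Jak2V617F GLUT1/3 WT and Jak2WT GLUT1/3 WT. Most rows are red in all 6 libraries of the other groups, while Rps27a and Rpl35a are red mainly in the dKO clones and Rpl22l1 is pale in Jak2V617F GLUT1/3 dKO.

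The comparison of Jak2V617F GLUT1/3 WT with Jak2WT GLUT1/3 WT sets the backgrounds side by side while glucose uptake is intact. According to the paper, the transduced cells went through a single-cell dilution before editing. The mutation and the parent cells of a background therefore cannot be told apart. In this comparison, 57 of the 80 genes were higher and 0 lower in the Jak2V617F clones (limma, Benjamini-Hochberg adjusted p under 0.05), against 15.3% of all genes called higher and 14.9% called lower. At an unadjusted p under 0.05, 64 were higher and 0 lower, beside 21.8% and 20.9% of all genes. With voom on the recovered reads, 55 were called higher and 0 lower, beside 1399 and 2655 of all 11818 genes. The median log2 fold change of the members was 0.47, a 1.39-fold difference, against 0.01 for all genes. Both Jak2V617F clones lay above both Jak2WT clones for 70 of the members and below them for 2, where 35.8% and 33.6% of all genes did so. Both subunits took part. For the small subunit 22 of 32 genes were called with a median of 0.47, and for the large subunit 35 of 48 with a median of 0.46. Without Jak2WT GLUT1/3 WT clone 1 the count fell to 20, without its clone 3 to 33, and without Jak2V617F GLUT1/3 WT clone 1 to 32, with all 57 genes still higher each time. Over all 11818 genes the higher calls were 802, 837 and 1042 in these fits, against 1812 with every library. Scaling the libraries to the same summed FPKM shifted the median of all genes to -0.12 and that of the members to 0.32, and 51 genes were then called higher, beside 1223 higher and 2930 lower of all 11818 genes. With voom the 2 medians were -0.10 and 0.36.

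Rpl13, on chromosome 8 from 123829089 to 123831983 (mm39), differed most. It was at 254 and 267 FPKM in the Jak2WT GLUT1/3 WT clones and at 504 and 485 in the Jak2V617F GLUT1/3 WT clones. These are 1.90-fold different means with no overlap, at a log2 fold change of 0.92 ± 0.10 (SE) and an adjusted p of 0.00119. Rpl13a, a 60S protein also known from the GAIT complex that silences inflammatory messages, rose from 35.9 and 38.9 to 61.6 and 64.7 FPKM (log2 0.74 ± 0.09, adjusted p = 0.00171). Rps7, a 40S protein that binds Mdm2 and is mutated in Diamond-Blackfan anaemia, rose from 317 and 343 to 588 and 517 FPKM (log2 0.74 ± 0.10, adjusted p = 0.00238). Each of these 3 genes passed the threshold under all 20 alternatives tried, with adjusted p-values of up to 0.0139, 0.0190 and 0.0241. Rps20, another 40S protein of the anaemia, went from 119 and 118 to 196 and 191 FPKM (log2 0.70 ± 0.08, adjusted p = 0.00133). Of the 31-base words in its transcript, 13.7% occur elsewhere in the genome, against 85.2% for Rpl13 and 67.7% for Rps7. The others of the 8 largest were Rps3a1 (0.73), Rps2 (0.70), Rpl9 (0.66) and Rpl7a (0.65). For Rps2, most of whose reads lie on its copies, the sum of gene and copies was higher by 0.55 (adjusted p = 0.00532). Rpl7a was the least stable of the 8, called under 13 of 20 alternatives with adjusted p-values between 0.0282 and 0.195. Its clones lay at 414 and 324 FPKM in Jak2WT GLUT1/3 WT and at 514 and 648 in Jak2V617F GLUT1/3 WT.

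The comparison of Jak2WT GLUT1/3 dKO with Jak2WT GLUT1/3 WT asks what loss of the transporters changes without the mutation. It shares the Jak2WT GLUT1/3 WT clones with the comparison above, so their directions are not independent of each other. Here 29 of the 80 genes were higher in dKO and 0 lower (limma, adjusted p), where 7.62% of all genes were called higher and 6.06% lower. At an unadjusted p under 0.05 there were 60 higher and 0 lower, beside 16.8% and 14.8% of all genes, and voom called 42 higher and 0 lower, beside 1018 and 1587 of all 11818 genes. The fold change was positive for all 80, with a median of 0.32 (1.25-fold) against 0.01 for all genes. Both dKO clones lay above both GLUT1/3 WT clones for 73 members and below them for 0, where 34.1% and 32% of all genes did so. The count fell when single clones were left out, as did the calls over all genes. Without Jak2WT GLUT1/3 WT clone 1 or clone 3 it was 0 (38 and 45 at an unadjusted p under 0.05, beside 1289 and 1480 of all genes), without dKO clone 1 it was 1 and without dKO clone 3 it was 3, although all 29 genes stayed higher in each of these fits. The higher calls over all 11818 genes were 74, 101, 120 and 183 in the same fits, against 901 with every library. The 80 genes kept a positive median under each scaling, 0.22 with the same summed FPKM, at which the median of all genes was -0.07.

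Among the called genes, the 8 largest differences after dKO in Jak2WT cells were in Rpl17 (log2 0.79 ± 0.19), Rpl13a (0.64 ± 0.09), Rps7 (0.56 ± 0.10), Rpl23a (0.54 ± 0.11), Rpl12 (0.53 ± 0.08), Rpl22 (0.51 ± 0.13), Rpl36a (0.50 ± 0.08) and Rps27a (0.49 ± 0.12). Rpl13a had the smallest adjusted p, 0.00780, and went from 35.9 and 38.9 to 61.7 and 56.1 FPKM. Rpl12, which sits at the base of the stalk where elongation factors bind, went from 236 and 238 to 358 and 330 FPKM (adjusted p = 0.00988), and Rpl36a from 208 and 203 to 283 and 298 (adjusted p = 0.0106). In all 3 genes both dKO clones lay above both GLUT1/3 WT clones. Rpl17, at the exit of the nascent peptide tunnel, was the most uneven. It was at 288 and 343 FPKM in Jak2WT GLUT1/3 WT, at 526 and 562 in Jak2WT GLUT1/3 dKO, at 553 and 371 in Jak2V617F GLUT1/3 WT, and at 616 and 552 in Jak2V617F GLUT1/3 dKO. The share of its reads on copies ranged from 25.4% to 57.8% between libraries, and with the copies added the difference after dKO was 0.45 (adjusted p = 0.0222) in place of 0.79.

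In Jak2V617F cells the transporters' loss went with few differences among these genes. Of the 80, 2 were higher and 4 lower after dKO in this background (limma, adjusted p), below the 13.7% higher and 16.2% lower among all genes. The median log2 fold change was -0.04, against -0.02 for all genes, and it turned to 0.05 both with the same summed FPKM and with voom, where all genes had medians of 0.06 and 0.07. At an unadjusted p under 0.05, 5 genes were higher and 13 lower, beside 19.5% and 23.1% of all genes, and voom called 9 higher and 4 lower, beside 2344 and 1617 of all 11818 genes. For 29 genes both dKO clones were below the pair with intact transporters (34.4% of all genes), and for 15 they were above it (29.9%). The count of lower genes was 0 without Jak2V617F GLUT1/3 WT clone 1, 2 without its clone 3, 2 without Jak2V617F GLUT1/3 dKO clone 3 and 2 without either Jak2WT GLUT1/3 WT clone. The lower calls over all genes were 1017, 1433, 1684, 1526 and 1523 in these fits, against 1919 with every library. That of higher genes was 1 without either Jak2WT GLUT1/3 WT clone, without Jak2V617F GLUT1/3 WT clone 3 or without Jak2V617F GLUT1/3 dKO clone 1, where those over all genes were 1300, 1296, 1079 and 1264, against 1614.

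The 4 lower genes all belong to the large subunit. Rpl22l1, the paralog of Rpl22, fell from 172 and 154 FPKM to 98.5 and 115 (log2 -0.61 ± 0.14, adjusted p = 0.0148). Rpl13 fell from 504 and 485 to 380 and 345 (log2 -0.45 ± 0.10, adjusted p = 0.0144), which left both clones above all 4 Jak2WT clones. Rpl5, which with Rpl11 and the 5S RNA restrains Mdm2, fell from 625 and 583 to 502 and 412 (log2 -0.41 ± 0.12, adjusted p = 0.0398). Rpl6 fell from 570 and 531 to 468 and 428 FPKM (log2 -0.30 ± 0.09, adjusted p = 0.0409). The last 2 were less stable, with adjusted p-values of up to 0.166 and 0.175 over the alternatives, and Rpl6 lost its call whichever library was left out. Rpl22l1 is on chromosome 3, where the 555 other genes tested had a median of -0.26 in this comparison, and Rpl5 and Rpl6 are on chromosome 5, where the median of the 780 others was -0.08. Rpl13 is on chromosome 8, where the 650 others had a median of -0.07. The part of these chromosome-wide shifts in the 4 genes was not tested.

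The 2 higher genes were Rps27a and Rpl35a. Rps27a, which encodes ubiquitin fused to a 40S protein and lies on chromosome 11 from 29495846 to 29498109, was at 316 and 259 FPKM in Jak2WT GLUT1/3 WT, and dKO clones of that background had 411 and 395. It was at 244 and 264 in Jak2V617F GLUT1/3 WT and at 420 and 467 in Jak2V617F GLUT1/3 dKO. All 4 dKO clones thus lay above all 4 others, and between the GLUT1/3 WT groups its clones overlapped (log2 -0.17 ± 0.12, adjusted p = 0.293). After dKO in Jak2V617F cells it was 1.75-fold higher (log2 0.80 ± 0.12, adjusted p = 0.00299), a call kept under all 20 alternatives with adjusted p-values of up to 0.0219. One of its copies, Rps27a-ps3, moved the other way, at 116 and 106 FPKM in Jak2V617F GLUT1/3 WT and between 17.9 and 44.7 in the other 6 libraries. With all named copies added to Rps27a the difference was 0.65 (adjusted p = 0.00460). Rpl35a, a 60S gene of Diamond-Blackfan anaemia, was at 133 and 135 FPKM in Jak2WT GLUT1/3 WT and 144 and 136 in Jak2V617F GLUT1/3 WT, below the 175, 163, 185 and 169 of the 4 dKO clones. Its difference was 0.34 ± 0.08 after dKO in either background (adjusted p = 0.0415 in Jak2WT and 0.0232 in Jak2V617F). In Jak2V617F its call was kept under 14 of 20 alternatives, with limma adjusted p-values of up to 0.0961. Rpl35a is on chromosome 16, where the median of the 373 other genes was 0.28 after dKO in Jak2V617F cells and -0.33 between the GLUT1/3 WT groups. The part of these shifts in its levels was not tested.

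**Figure D4:**
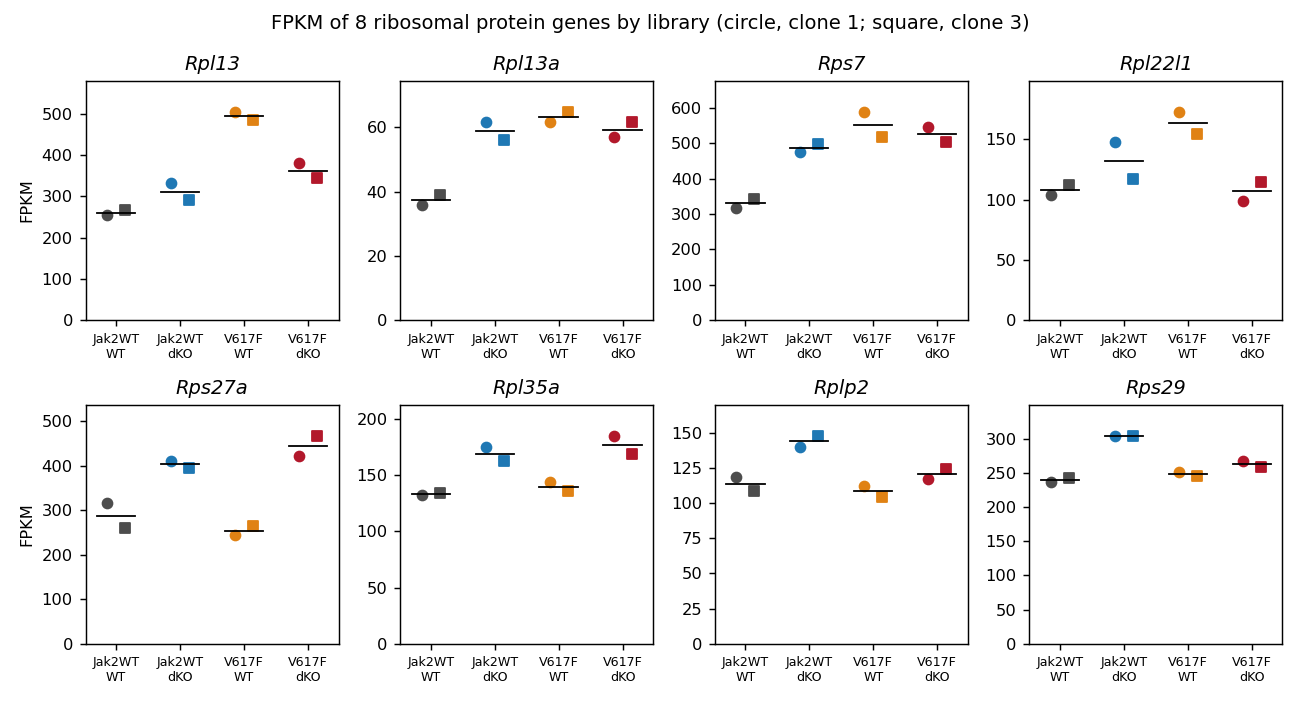
FPKM (vertical axes, from 0) of 8 ribosomal protein genes in each library by group, with group means as lines. Rpl13, Rpl13a and Rps7 are lowest in Jak2WT GLUT1/3 WT, Rps27a and Rpl35a are higher in the 4 dKO clones than in the 4 others, and Rplp2 and Rps29 are highest in Jak2WT GLUT1/3 dKO.

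Between the dKO groups, 0 of the 80 genes differed between Jak2V617F and Jak2WT (limma, adjusted p), where 7.12% of all genes were called higher and 9.96% lower. The smallest adjusted p among the members was 0.0665, for Rpl38, at 321 and 300 FPKM in the Jak2V617F and 267 and 241 FPKM in the Jak2WT dKO clones (log2 0.29 ± 0.09). Rpl38 was named after its values were seen. At an unadjusted p under 0.05, 5 genes were higher and 4 lower, beside 13.7% and 18.2% of all genes. Voom called 11 higher and 0 lower, beside 1342 higher and 1344 lower of all 11818 genes. Scaling to the same summed FPKM gave 5 higher and 0 lower, beside 977 and 1087 of all genes. The median log2 fold change was 0.07, with a range from -0.41 to 0.33, against a median of -0.02 for all genes. Both Jak2V617F clones lay above both Jak2WT clones for 27 members and below them for 12, where 27.5% and 33.1% of all genes did so.

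The question whether dKO acted differently in the backgrounds was addressed with an interaction term, the fold change of dKO in Jak2V617F minus that in Jak2WT. This term also holds the Jak2WT GLUT1/3 WT clones, so its direction is not independent of the comparisons above that use them. It was called negative for 15 of the 80 genes and positive for 0 (limma, adjusted p), where 5.91% of all genes were called negative and 4.72% positive. At an unadjusted p under 0.05, 51 were negative and 0 positive, beside 17.3% and 12.9% of all genes. Voom called 13 negative and 0 positive, whereas over all 11818 genes it called 575 negative and 1321 positive. The median was -0.39, against -0.04 for all genes. With the same summed FPKM it was -0.19, at a median of all genes of 0.12. Rpl22l1 had the largest called value, -0.90 ± 0.19 (adjusted p = 0.0314), with a log2 difference after dKO of 0.29 in Jak2WT and -0.61 in Jak2V617F. Rpl13a followed with -0.73 ± 0.13 (adjusted p = 0.0184), made of 0.64 in Jak2WT and -0.09 in Jak2V617F. Rpl13 had -0.70 ± 0.14 (adjusted p = 0.0266), made of 0.26 and -0.45. For Rps7 the value was -0.63 ± 0.14 (adjusted p = 0.0337), made of 0.56 and -0.07. Without Jak2WT GLUT1/3 WT clone 1, its clone 3 or Jak2WT GLUT1/3 dKO clone 1 the count was 0 (31, 40 and 33 negative at an unadjusted p under 0.05, beside 1401, 1558 and 1413 of all genes), and over all 11818 genes it was 41, 3 and 36, against 698 with every library. It was 1 without Jak2V617F GLUT1/3 WT clone 1, 5 without its clone 3, 4 without Jak2WT GLUT1/3 dKO clone 3, and 9 and 7 without Jak2V617F GLUT1/3 dKO clones 1 and 3. The negative calls over all genes were 158, 419, 280, 583 and 754 in these 5 fits. All 15 genes stayed negative in each of the 8 fits.

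**Figure D5:**
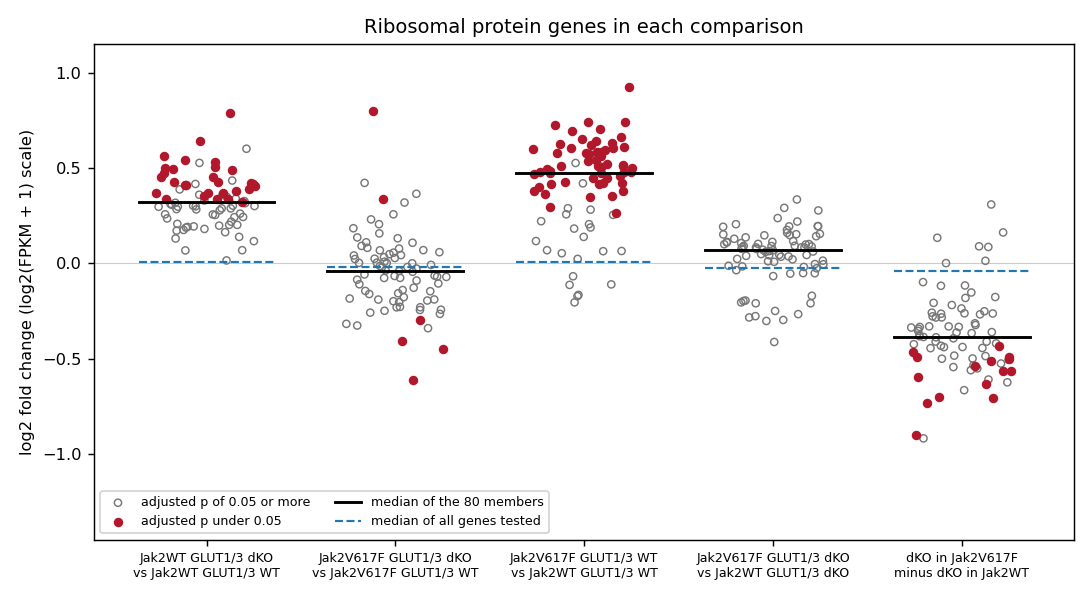
log2 fold change of each of the 80 ribosomal protein genes (vertical axis, log2(FPKM + 1) scale) in the 4 comparisons and the interaction, with called genes filled, the median of the members as a solid line and that of all genes as a dashed line. The members' medians are 0.32, -0.04, 0.47, 0.07 and -0.39 from left to right, while the medians of all genes lie between -0.04 and 0.01.

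The stalk proteins, which recruit the GTPases of translation, did not share 1 pattern. Rplp0 was at 1710 and 1855 FPKM in Jak2WT GLUT1/3 WT and at 2675 and 2403 in Jak2V617F GLUT1/3 WT (log2 0.51 ± 0.11, adjusted p = 0.0116). Rplp1 was at 1291 and 1354 in the former and 1812 and 1711 in the latter (log2 0.41 ± 0.10, adjusted p = 0.0196). Rplp2, in contrast, was at 119 and 109 FPKM in Jak2WT GLUT1/3 WT and at 112 and 105 in Jak2V617F GLUT1/3 WT, with overlapping clones (log2 -0.07 ± 0.09, adjusted p = 0.584). It was called in Jak2WT GLUT1/3 dKO alone of the 3 genes, at 140 and 148 FPKM (log2 0.34 ± 0.09, adjusted p = 0.0429), where Rplp0 had 0.30 ± 0.11 (adjusted p = 0.101) and Rplp1 0.31 ± 0.10 (adjusted p = 0.0779), so these 3 values lie within their errors of each other. Without the filter on low values the adjusted p of Rplp0 and Rplp1 between the GLUT1/3 WT groups rose to 0.446 and 0.436. Rpsa, a 40S protein also called the laminin receptor, was at 817 and 914 FPKM in Jak2WT GLUT1/3 WT and 1351 and 1244 in Jak2V617F GLUT1/3 WT (log2 0.59 ± 0.12, adjusted p = 0.0103).

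Rps29 and Rps13 also had their highest levels in Jak2WT GLUT1/3 dKO. Rps29, a 40S protein with a zinc finger, was at 237 and 243 FPKM in Jak2WT GLUT1/3 WT, 304 and 304 after dKO in that background, 252 and 246 in Jak2V617F GLUT1/3 WT and 267 and 258 in Jak2V617F GLUT1/3 dKO. It was called higher after dKO in Jak2WT (log2 0.34 ± 0.07, adjusted p = 0.0263) and differed by 0.05 ± 0.07 between the GLUT1/3 WT groups (adjusted p = 0.618). Rps13 had 0.31 ± 0.09 (adjusted p = 0.0527) and 0.06 ± 0.09 (adjusted p = 0.603) in the same comparisons. Rps29 and Rps13 were named after their values were seen.

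Among the paralogs, Rpl22 and Rpl22l1 can replace each other in the ribosome. Rpl22 was at 114 and 111 FPKM in Jak2WT GLUT1/3 WT, 183 and 140 after dKO in that background, 183 and 166 in Jak2V617F GLUT1/3 WT, and 168 and 170 in Jak2V617F GLUT1/3 dKO. Rpl22l1 was at 103.4 and 112, 148 and 117, 172 and 154, and 98.5 and 115 FPKM in the same order. Both were higher in Jak2V617F GLUT1/3 WT than in Jak2WT GLUT1/3 WT (log2 0.63 ± 0.13 and 0.60 ± 0.14, adjusted p = 0.0106 and 0.0155). After dKO in Jak2V617F, Rpl22 differed by -0.04 ± 0.13 (adjusted p = 0.819), while Rpl22l1 was lower, as given above. Rps27 was called higher in Jak2V617F GLUT1/3 WT (log2 0.26 ± 0.07, adjusted p = 0.0344), a call kept under 10 of 20 alternatives and lost with the same summed FPKM (0.11, adjusted p = 0.189). Rps27l, a paralog under control of p53, had 0.02 ± 0.08 (adjusted p = 0.854), a value that turned to -0.13 with the same summed FPKM and to -0.084 with voom. Rpl7 had 0.60 ± 0.09 (adjusted p = 0.00304) and its paralog Rpl7l1, a factor of nucleolar assembly, 0.12 ± 0.11 (adjusted p = 0.458), which turned to -0.036 with the same summed FPKM. The difference within a pair was not tested. Rpl3 (0.42), Rpl10 (0.40) and Rps4x (0.57) were called higher in the same comparison, and Rpl39 had 0.28 (adjusted p = 0.0643).

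The 20 members known from Diamond-Blackfan anaemia were counted apart. In Jak2V617F GLUT1/3 WT 13 were higher than in Jak2WT GLUT1/3 WT with a median of 0.44, and after dKO in Jak2WT 7 were higher with a median of 0.29, with 0 lower in either. Of all genes, 15.3% and 7.62% were called higher in these comparisons. Of all 80 members, 57 and 29 were, with medians of 0.47 and 0.32. After dKO in Jak2V617F, 1 was higher (Rpl35a) and 1 lower (Rpl5), with a median of -0.05, against 13.7% and 16.2% of all genes. Sequence classes were compared in the same way. The 21 genes with a pyrimidine run at a start had medians of 0.46 between the GLUT1/3 WT groups and 0.31 after dKO in Jak2WT. The 39 genes whose listed promoters had none had 0.47 and 0.31. These classes rest on the starts that RefSeq lists, and a gene without a run there may have one at the start in use. The medians therefore do not show whether the run matters. The 42 members with most of their 31-base words elsewhere in the genome had medians of 0.45 and 0.30, with 30 and 12 called. The 38 others had 0.49 and 0.35, with 27 and 17 called. On each of the 11 chromosomes with at least 4 members, the members' median between the GLUT1/3 WT groups was above that of the other genes there. It ranged from 0.19 on chromosome 17 to 0.63 on chromosome 4, and the medians of the other genes on these chromosomes from -0.09 to 0.05.

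Other genes of translation were set beside the members, with examples chosen after their values were seen. Mitochondrial ribosomal protein genes, which serve the separate ribosome of that organelle, were counted for comparison. Of all genes, 15.3% were called higher and 14.9% lower between the GLUT1/3 WT groups, 7.62% and 6.06% after dKO in Jak2WT, and 13.7% and 16.2% after dKO in Jak2V617F. Of 77 tested, 2 were higher and 7 lower in Jak2V617F GLUT1/3 WT than in Jak2WT GLUT1/3 WT, with a median of 0.03, and after dKO in Jak2WT 4 were higher and 2 lower, with a median of 0.05. After dKO in Jak2V617F 12 were higher and 6 lower, with a median of -0.02. Among 16 other messages known for a pyrimidine start, such as those of elongation factors, 11 were higher and 0 lower between the GLUT1/3 WT groups with a median of 0.53, 4 were higher and 0 lower after dKO in Jak2WT with a median of 0.26, and 1 was higher and 5 lower after dKO in Jak2V617F with a median of -0.11. Examples are Eif3f, a subunit of initiation factor 3, with log2 0.73 ± 0.08 (adjusted p = 0.00125), and the nucleolar chaperone Npm1, with 0.63 ± 0.09 (adjusted p = 0.00254), both between the GLUT1/3 WT groups. Of ribosomal protein genes outside the naming rule, Fau (0.46, adjusted p = 0.0127) and Rack1 (0.59, adjusted p = 0.00524) were higher in Jak2V617F GLUT1/3 WT. Rpl36al, at means of 2.03 and 1.145 FPKM, was lower (-0.50, adjusted p = 0.0456).

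Of 11 genes that control the transcription or translation of ribosomal protein messages, 2 were higher and 2 lower in Jak2V617F GLUT1/3 WT, and 1 was higher and 4 lower after dKO in Jak2V617F. With 15.3% of all genes called higher and 14.9% lower in the former and 13.7% and 16.2% in the latter, the counts of 2 of 11 are near the background. Myc, a transcription factor that drives ribosome synthesis, was at 101 and 105 FPKM in Jak2WT GLUT1/3 WT, 122 and 125 after dKO in that background, 160 and 154 in Jak2V617F GLUT1/3 WT, and 124 and 104 in Jak2V617F GLUT1/3 dKO. It was called higher between the GLUT1/3 WT groups (log2 0.60 ± 0.10, adjusted p = 0.00474) and lower after dKO in Jak2V617F (log2 -0.47 ± 0.10, adjusted p = 0.0121). Eif4ebp1, the mTOR-controlled repressor of cap binding, rose by 0.55 ± 0.10 (adjusted p = 0.00627) in the former and had -1.02 ± 0.10 (adjusted p = 0.000713) in the latter. The 2 lower genes between the GLUT1/3 WT groups were Eif4ebp2, a paralog of Eif4ebp1, at log2 -0.65 ± 0.09 (adjusted p = 0.00281), and the ETS factor gene Gabpa at -0.43 ± 0.10 (adjusted p = 0.0173). After dKO in Jak2V617F, Eif4ebp2 was the higher gene (log2 0.31 ± 0.09, adjusted p = 0.0412), and the transcription factor gene Sp1 was lower (log2 -0.31 ± 0.08, adjusted p = 0.0276). Larp1 was also lower after dKO in Jak2V617F (log2 -0.26 ± 0.07, adjusted p = 0.0339). Of 7 tested chaperones that escort single ribosomal proteins, 3 were higher in Jak2V617F GLUT1/3 WT (Ltv1, Tsr2 and Rrs1) and 2 after dKO in Jak2WT (Rrs1 and Grwd1), with 0 lower in either, beside 15.3% and 7.62% of all genes called higher. Rrs1, needed for assembly of the 60S particle with Rpl5 and Rpl11, rose by 0.86 ± 0.10 after dKO in Jak2WT (adjusted p = 0.00576).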

How the data were processed

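RNA of 8 clones of 32D cells, 2 in each of 4 groups, had been sequenced after polyA selection. According to the submitters' processing notes, the authors trimmed reads with fastp 1.0.1, aligned them to mm39 with HISAT2 2.2.1, counted them with featureCounts 2.0.6 and deposited FPKM per gene. The annotation, the strand setting and the treatment of reads with several matches are not given in the sources used here. All 8 value columns were used. FPKM times gene length gave whole reads for 100% of values within a tolerance of 0.01, which set the recovered depth. Genes with at least 1 FPKM in at least 2 libraries (11818) were tested on log2(FPKM + 1) with limma 3.58.1 (R 4.3.3), using 1 mean per group, trended empirical Bayes (4 residual degrees of freedom) and Benjamini-Hochberg adjustment over all genes at 0.05. Fold changes on this scale understate those of low genes. The comparisons were dKO against WT in each background, the backgrounds among WT and among dKO clones, and the interaction.

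The members and lists were chosen with earlier results of these data known. Named are, per comparison, the 8 largest called members in each direction whose clones do not overlap, the stalk genes, Rpsa, the paralog pairs, the 5 highest and the 5 lowest levels, the 5 largest coefficients of variation and the targets. On simulated data with 200 genes changed 2-fold among 11502, the test recovered 79% for the comparison of dKO with WT in Jak2V617F and called 10 others. Read sharing was counted as 31-base words of the GENCODE vM39 canonical transcript found elsewhere in GRCm39. The clones' numbers 1 and 3 mark no pairing. Alternatives were another pseudocount, filter, scaling, empirical Bayes step, voom, the groups compared alone, a clone number block, single libraries left out and, chosen after seeing the data, copies added to their gene. Some items of the design and some genes of the comparison lists are not reported here.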

Additional observations from a re-analysis of the deposited data

Results flagged for a closer look

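For 15 of the 80 ribosomal protein genes the effect of dKO differed between the backgrounds by the interaction test (limma, adjusted p under 0.05), and in all 15 the log2 fold change after dKO was lower in Jak2V617F than in Jak2WT. Of all genes, 5.91% were called in this direction. The interaction shares the Jak2WT GLUT1/3 WT clones, the low group for most members, with the comparisons that use that group. The count of 15 fell to 0 without Jak2WT GLUT1/3 WT clone 1, its clone 3 or Jak2WT GLUT1/3 dKO clone 1, and to between 1 and 9 without any other single library. The calls over all genes fell from 698 to 41, 3 and 36 in the first 3 of these fits, and lay between 158 and 754 in the other 5. In the large subunit the interaction was -0.90 for Rpl22l1 (adjusted p = 0.0314), -0.73 for Rpl13a (0.0184), -0.70 for Rpl13 (0.0266), -0.70 for Rpl9 (0.0404), -0.59 for Rpl6 (0.0306), -0.57 for Rpl27a (0.0253), -0.54 for Rpl12 (0.0314), -0.50 for Rpl7 (0.0440) and -0.49 for Rpl36a (0.0360). In the small subunit it was -0.63 for Rps7 (0.0337), -0.57 for Rps3 (0.0450), -0.51 for Rps24 (0.0337), -0.49 for Rps21 (0.0442), -0.46 for Rps20 (0.0406) and -0.43 for Rps27 (0.0439). Over the alternatives the adjusted p of Rpl13a lay between 0.0167 and 0.0823, and it was called under 16 of 19. The others were called under fewer, down to 6 of 19 for Rps20 and Rps27 and 7 of 19 for Rpl7, Rpl36a and Rps21.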

How the results depend on the processing

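The limits are 2 clones per group and reads shared with copies. A fit that leaves out 1 library assumes that the lone clone varies like those of the other groups. Without single libraries, the members called higher ranged from 0 to 28 after dKO in Jak2WT, from 1 to 2 after dKO in Jak2V617F (lower, from 0 to 3) and from 20 to 58 between the GLUT1/3 WT groups, and those with a negative interaction from 0 to 9. In that order (higher after dKO in Jak2WT, higher and lower after dKO in Jak2V617F, higher between the GLUT1/3 WT groups, negative interaction), the counts were 6, 2, 0, 25 and 1 with no filter, beside 402, 1244, 1354, 1297 and 181 of all 25788 genes then tested. Among the 38 members with up to 50% of their 31-base words elsewhere they were 17, 1, 1, 27 and 5, as fewer genes were counted. In Jak2V617F, dKO gave 7 higher with the same summed FPKM, 4 with either median ratio scaling, 9 with voom and 1 (with 1 lower) in a fit of only those groups. Over all 11818 genes the higher calls were 2192, 1810, 2344 and 764 (with 853 lower) in the same order. Between the dKO groups these scalings gave 5, 2 and 2 higher and voom 11, beside 977, 965, 969 and 1342 of all genes. The negative interaction was called for 9 genes with the same summed FPKM, 9 with no trend and 9 with the clone number as a block, beside 393, 543 and 510 of all genes. The block left 21, 2, 3 and 55 calls elsewhere, beside 742, 1486, 1740 and 1708 of all genes. The correlations of same-numbered clones lay between -0.25 and 0.15, so the numbers were not taken as pairs. For changes without a named construction the cause was not tested. Adding copies to their gene, chosen after seeing the data, gave 32, 2, 5, 61 and 16, beside 908, 1625, 1927, 1790 and 715 of the 11728 genes then tested. The share was 5.42%, 6.56%, 7.12% and 7.10% of reads in the order used for the groups, 3.92%, 4.69%, 4.94% and 5.12% without members with more than 50% of their words elsewhere, and 10.1% in Jak2WT GLUT1/3 WT over filtered genes. Reversed values, none called, were Rplp2 in the interaction (0.0095) and, between the GLUT1/3 WT groups, Rpl7l1 (-0.036) and Rps27l (-0.13) with the same summed FPKM and Rps27l with voom (-0.084). Without single libraries Rpl7l1 ranged from -0.0071 to 0.24 and Rps27l from -0.0030 to 0.049. Of 1554 values of 79 single-gene results, 1251 kept direction and call, 289 lost the call (206 without 1 library), 8 gained it and 6 reversed.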
